A study of Homo sapiens with 60 samples.

Results

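The genes described here are the zinc finger genes of human chromosome 19 that HepG2 cells, a human hepatocellular carcinoma line, transcribed at a measurable level. They are protein-coding genes of GENCODE release 29 on that chromosome whose symbol is ZNF and a number, and they averaged 0.5 CPM or more over 57 libraries, where CPM is a count scaled to a common library total. The rule took 208 of the 246 genes so named on the chromosome, out of 16167 genes tested in the series. Only the mean level over all libraries, whatever their treatment, chose the members. ZNF568 and ZNF582 lay just inside with mean levels of 0.535 and 0.545 CPM, and ZNF837 and ZNF575 just outside with 0.467 and 0.471 CPM. All 208 members passed the filter on low counts that precedes the test.

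C2H2 zinc finger proteins read DNA through tandem fingers, each of which contacts a short run of bases. Many carry an N-terminal KRAB domain, which recruits the corepressor TRIM28, and through it the histone H3 lysine 9 methyltransferase SETDB1 and HP1 proteins, to silence the bound sequence, often a transposable element. The human genome holds most of these KRAB zinc finger genes in tandem clusters on chromosome 19 that grew by duplication in primates, so neighbours resemble each other in sequence.

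HepG2 cells were harvested after 24 h with hot-water extracts of 4 herbs (Cinnamomi Cortex, Astragali Radix, Cnidii Rhizoma, Rehmanniae Radix Preparata) or of 3 herb formulas (Sagunja-tang, Samul-tang, Palmul-tang), at 20, 100 or 500 µg/mL, or with dimethyl sulfoxide vehicle. The vehicle was 0.1% in the sample labels and 2% in the design text. Each group had 3 libraries except those of Palmul-tang, with 1 per dose, and the labels do not say whether the 3 were separate cultures, so the p-values cover the spread among these libraries alone, which may be technical. Library totals ran between 16.5 M and 34.4 M counts. The sample codes put the extracts in pairs (Cinnamomi Cortex with Astragali Radix, Cnidii Rhizoma with Rehmanniae Radix Preparata, Sagunja-tang with Samul-tang), and the vehicle libraries belong to none of them, so a difference from vehicle cannot be told apart from a difference between these sets, whereas a dose trend compares libraries of 1 set. The hepatocyte gene ALB was at 11091, 12135 and 12117 CPM in Cinnamomi Cortex libraries at 500 µg/mL, against 10585, 10620 and 11453 CPM in vehicle libraries. Of 7 markers of other cell types, PTPRC was at 0 in all 6 of these libraries and CDH5, COL1A1 and KRT7 were under 0.5 CPM, while CD68 had 150, 146 and 130 CPM, against 59.4, 56.3 and 59.4 CPM in vehicle libraries, and PDGFRB 17, 16.6 and 16.8 CPM, against 6.13, 6.29 and 7.25 CPM in vehicle libraries. The 7 summed to between 148.2 and 168.7 CPM in treated libraries and to between 64.87 and 68.43 CPM in vehicle libraries, and their part in the results was not tested.

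Members spanned mean levels of 0.535 to 61.1 CPM, with a median of 5.62 CPM; 56 had at least 10 CPM and 29 under 2 CPM. A profile of the KRAB A box found one in 178 members and not in the other 30, and it can miss divergent boxes. The translated proteins held 0 to 31 matches to the finger pattern, with a median of 12. ZNF91, a repressor of SVA retrotransposons, had the 31, and ZNF738 had 0 in a short gene model. Per kilobase of merged exons the highest mean levels were those of ZNF787 (15.5 CPM per kb), ZNF146 (14.7), ZNF358 (12.5), ZNF428 (7.65), ZNF580 (6.45) and ZNF581 (6.2), none of which had a detected KRAB A box. Exons of 74 members overlapped another gene on the same strand and those of 65 a gene on the opposite strand, and 28 members shared over 10% of their 100-base windows with another transcript, so part of their counts depends on how reads were divided.

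With Cinnamomi Cortex at 500 µg/mL many of the chromosome 19 ZNF genes fell and fewer rose. Of the 208 members, 25 rose and 105 fell against vehicle at an adjusted p under 0.05 (edgeR's quasi-likelihood test, Benjamini-Hochberg over all genes), and 78 did not pass. Over all tested genes 31.1% rose and 31.6% fell, so the share of members that fell (50.5%) lay above that of all genes and the share that rose (12%) below it. The median log2 fold change was -0.3 over members and -0.02 over all genes. A change of at least 2-fold was called upward for 1 member and downward for 23, against 6.69% and 8.86% of all genes. In 27 members all 3 treated libraries lay above all 3 vehicle libraries and in 112 all lay below, against 33.2% and 34% of all genes. The balance of calls moved with the scaling. With library totals in place of TMM factors 8 members rose and 148 fell, and the fallen share of the calls was 94.9% in place of 80.8%. Of all 16167 genes 2598 then rose and 8147 fell, and their median was -0.3. The mitochondrial share of counts moved with the group, at 21.9%, 22.3% and 19.4% in Cinnamomi Cortex libraries at 500 µg/mL, against 14.6%, 14.4% and 16.7% in vehicle libraries, as did the TMM factor, at 0.838, 0.833 and 0.862, against 1.03, 1.04 and 1.01 in vehicle libraries; their part in the result was not tested. In bulk RNA, fewer cells that transcribe a gene and less RNA per cell cannot be told apart.

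**Figure D1:**
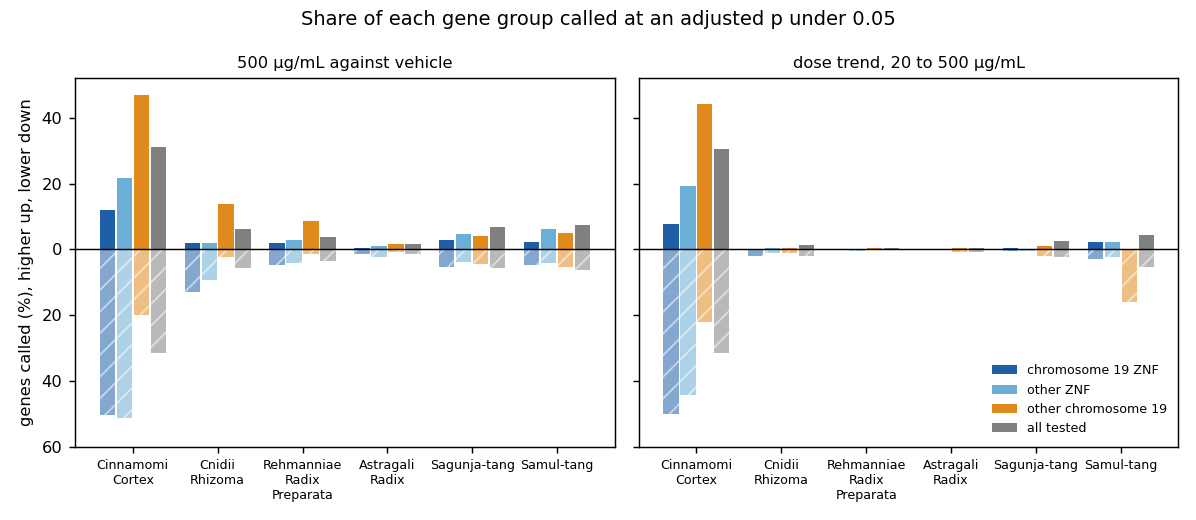
Share of genes called at an adjusted p under 0.05, in percent, for 4 gene groups: chromosome 19 ZNF genes, ZNF genes of other chromosomes, other protein-coding genes of chromosome 19 and all genes tested. Bars above 0 are genes that rose and hatched bars below 0 genes that fell, for 6 extracts at 500 µg/mL against vehicle on the left and along the dose trend on the right. With Cinnamomi Cortex 50.5% of chromosome 19 ZNF genes fell and 12% rose.

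ZNF genes of other chromosomes had a share of fallen genes near that of the members (51.4%), and the other genes of chromosome 19 a lower one (19.8%). Of 212 ZNF genes elsewhere with the same minimum level, 46 rose and 109 fell, with a median log2 fold change of -0.27. Among 701 other protein-coding genes of chromosome 19, 330 rose and 139 fell, with a median of 0.18. Of 11 chromosome 19 finger genes of the ZFP, ZSCAN, ZIM, ZBTB and PEG3 families, 3 rose and 2 fell. Those 5 were ZBTB7A (0.63), ZBTB45 (0.41) and ZFP36 (2.98, an RNA-binding protein with CCCH fingers), which rose, and ZFP14 (-0.86) and ZFP30 (-0.42), which fell, all as log2 fold changes. No test of the difference between these groups was run.

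Counts differed between members with and without a detected KRAB A box. Of the 178 with one, 12 rose and 94 fell, with a median log2 fold change of -0.32. Of the 30 without one, 13 rose and 11 fell, with a median of 0.07. Of those 13, 9 are neighbours in 1 stretch, from ZNF628 to ZNF444, with transcript GC contents between 57.8% and 71.1%. The shares over all genes were 31.1% that rose and 31.6% that fell. All 23 members that fell at least 2-fold had the box, as did 178 of all 208 members. The difference between the groups was not tested. The median was -0.12 in the 56 members with under 10 fingers, -0.31 in the 106 with 10 to 15 and -0.48 in the 46 with more than 15. Calls followed the same order: 13 rose and 15 fell, 9 rose and 58 fell, and 3 rose and 32 fell. The level of a member showed no such order, with medians of -0.31 under 2 CPM, -0.35 between 2 and 10 CPM and -0.24 at 10 CPM or more. The GC content of transcripts moved with these groups: its median was 42.1% with the KRAB box, 58.7% without, 60.1% in the other chromosome 19 genes and 48.6% in all genes. Across genes, log2 fold change and GC content had a Pearson's r of 0.38 over the 208 members (Spearman's rho 0.46) and 0.17 over 16056 genes with a sequence (rho 0.2), given as a description of points that share the same 6 libraries. At 35 to 40% GC the median was -0.52 in 54 members and -0.16 in 2181 genes of all kinds, and at 40 to 45% it was -0.28 in 90 members and -0.12 in 3378 genes. At 60 to 65% GC it was 0.32 in 7 members and 0.18 in 1719 genes. In between, it was -0.35 in 33 members and -0.05 in all genes at 45 to 50%. At 50 to 55% it was -0.04 in 8 members and 0 in all genes, and at 55 to 60% it was 0.1 in both. The other chromosome 19 genes had -0.42 in 5 genes at 35 to 40%, -0.44 in 13 at 40 to 45% and 0.24 in 26 at 45 to 50%. At 60 to 65% they had 0.23 in 259 genes. The part of GC content in the results was not tested beyond these values.

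The cluster between ZNF101 and ZNF254 (chr19:19668796-24129961, GRCh38, 37 genes) had the lowest median of the clusters with more than 5 members. Clusters are runs of ZNF genes whose starts lie less than 1 Mb apart. Of its 24 members none rose and 21 fell, against 31.1% and 31.6% of all genes. The median log2 fold change of the 24 was -0.91, and 11 fell at least 2-fold. The 3 that did not pass were ZNF101 (0.16), ZNF626 (-0.07) and ZNF66 (-0.22). The 11 neighbouring members of the stretch that starts at ZNF431 and ends at ZNF254 all fell, by log2 fold changes between -1.64 and -0.45. The ends of this stretch were set with the calls known, so the shared direction is no finding of its own. Transcripts of the cluster had a median GC content of 37.5%. Leaving out TMM scaling, with totals alone, 23 of the 24 fell, and with DESeq2 19 did. Of all 16167 genes 8147 fell with totals alone and 4808 with DESeq2.

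Promoters in this cluster resemble each other, and the RefSeq stretches of 120 bases before the start of 4 members whose RNA fell are shown to make that visible, with that of ZNF460, the member with the largest rise, for contrast. Capitals mark the 10 bases TCCAATCAGG, which include the CCAAT box, and which a search found to be the commonest run of 10 among the cluster's promoters on either strand. The stretch of ZNF460 lacks this run of 10 but also holds the letters CCAAT.
ZNF682: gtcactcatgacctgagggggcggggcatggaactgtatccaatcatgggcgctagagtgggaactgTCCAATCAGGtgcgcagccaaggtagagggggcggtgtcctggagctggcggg
ZNF85: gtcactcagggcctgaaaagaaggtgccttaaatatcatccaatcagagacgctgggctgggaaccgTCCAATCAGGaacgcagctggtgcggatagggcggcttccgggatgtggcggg
ZNF43: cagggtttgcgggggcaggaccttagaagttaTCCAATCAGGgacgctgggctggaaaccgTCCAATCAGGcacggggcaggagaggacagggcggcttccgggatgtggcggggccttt
ZNF91: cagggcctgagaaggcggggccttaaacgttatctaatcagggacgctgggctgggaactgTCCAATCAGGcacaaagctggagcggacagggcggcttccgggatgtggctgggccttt
ZNF460: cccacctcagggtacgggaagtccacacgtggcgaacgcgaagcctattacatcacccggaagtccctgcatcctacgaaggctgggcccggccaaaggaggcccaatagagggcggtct
These lie at chr19:20039506-20039625 (minus strand) for ZNF682, chr19:20923131-20923250 (plus) for ZNF85, chr19:21836183-21836302 (minus) for ZNF43, chr19:23395472-23395591 (minus) for ZNF91 and chr19:57279862-57279981 (plus) for ZNF460, in GRCh38.p14.

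Of 208 members, 187 had a promoter of 300 bases (250 before and 50 after the start) in the RefSeq table. TCCAATCAGG or its reverse complement CCTGATTGGA was in 20 of 21 promoters of the ZNF101 to ZNF254 cluster (95.2%), in 17 of 166 promoters of members elsewhere (10.2%) and in 106 of 27305 promoters of the table (0.388%). In the cluster it started 30 to 88 bases before the gene start, with a median of 58. Outside the cluster, members with these letters had a median log2 fold change of -0.27 with Cinnamomi Cortex at 500 µg/mL and those without them -0.24. Inside it, the 20 with these letters had a median of -0.78, and the 1 without them was lower, at -1.46. The CCGGAAG motif, the core bound by ETS factors, stood in 44.4% of members' promoters, in 66.7% of those of the cluster and in 10.7% of the table. The stretch shown for ZNF460 holds this motif too. Shared letters between tandem copies are a description and were searched for after the expression values were known.

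ZNF682 had the largest fall that does not rest on reads shared with another gene. It had 0.966, 1.19 and 0.857 CPM in Cinnamomi Cortex libraries at 500 µg/mL, against 3.87, 4.9 and 4.86 CPM in vehicle libraries. Its log2 fold change was -2.17 (SE 0.19, adjusted p 7.87e-14). ZNF85 had 0.879, 0.873 and 0.619 CPM, against 2.45, 2.32 and 2.9 CPM in vehicle libraries (log2 fold change -1.68, adjusted p 9.45e-10). ZNF43 had 2.55, 2.66 and 3.24 CPM, against 8.35, 7.71 and 10.3 CPM in vehicle libraries (-1.64, adjusted p 4.13e-15). Members named for the largest rises and falls were picked among called members whose treated and vehicle libraries did not overlap. That separation is therefore no finding of its own.

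ZNF90, another gene of this cluster, had 1.05, 0.797 and 0.822 CPM in treated libraries, against 2.8, 2.88 and 2.44 CPM in vehicle libraries (log2 fold change -1.61, adjusted p 9.33e-10). ZNF493 had 2.42, 2.62 and 2.43 CPM, against 7.47, 6.22 and 6.96 CPM in vehicle libraries (-1.46, adjusted p 9.07e-12). Both genes were picked by the same rule. ZNF738 fell by 1.27 and ZNF724 by 1.25 on the log2 scale, but ZNF724 shares 52.1% of its windows with the overlapping transcript AC092329.3, which was not used here. ZNF91, whose fold change was smaller than those named above, had 18.3, 16.5 and 16.9 CPM in treated libraries, against 24.9, 23.1 and 26.5 CPM in vehicle libraries (-0.52, SE 0.12, adjusted p 0.00027).

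**Figure D2:**
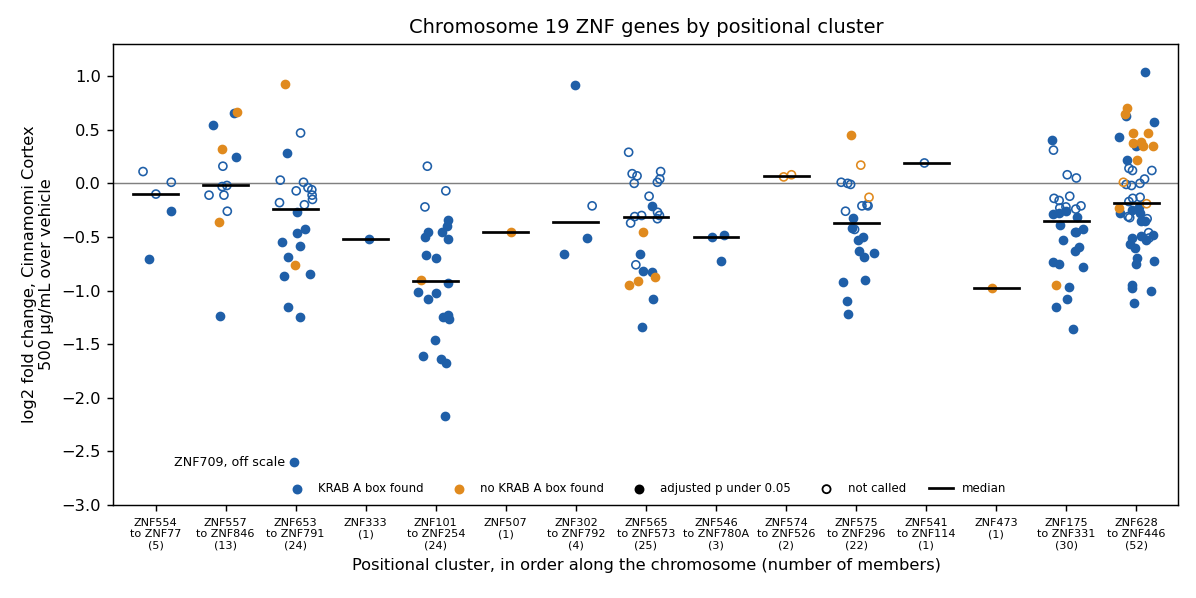
Log2 fold change of each member, Cinnamomi Cortex at 500 µg/mL over vehicle, by positional cluster in order along chromosome 19. Each point is 1 member, blue with and orange without a detected KRAB A box, filled where the adjusted p was under 0.05, and bars are medians. The ZNF101 to ZNF254 cluster has the lowest median of the clusters with more than 5 members, -0.91, and orange points above 0 gather in the last cluster.

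The last cluster, from ZNF628 to ZNF446 near the chromosome end, held 52 members of which 15 rose and 20 fell. The counts of each cluster stand against 31.1% of all genes that rose and 31.6% that fell. Its 40 members with a KRAB A box split into 6 that rose and 19 that fell (median log2 fold change -0.29), and its 12 without one into 9 that rose and 1 that fell (median 0.36). Those 9 risers are neighbours, the stretch from ZNF628 to ZNF444, with log2 fold changes between 0.22 and 0.7 and transcript GC contents between 57.8% and 71.1%. With library totals alone 2 of the 9 rose, 8 kept a value above 0 and ZNF444 turned to -0.06. With the averaged groups at 20 µg/mL as the comparator 5 rose and ZNF444 was at -0.1. Of all 16167 genes 2598 rose with library totals and 5534 against the groups at 20 µg/mL. The call of ZNF444 was also lost without vehicle replicate 1 (0.16) or Cinnamomi Cortex replicate 2 (0.15). Further along, 3 KRAB neighbours, ZNF264, ZNF805 and ZNF460, also rose. Both stretches of neighbours were marked out with the calls known, so the shared direction within each is no finding of its own. In the other clusters with more than 5 members, 1 rose and 19 fell of 30 between ZNF175 and ZNF331, none rose and 10 fell of 25 between ZNF565 and ZNF573, and 1 rose and 11 fell of 22 between ZNF575 and ZNF296. Between ZNF653 and ZNF791 2 rose and 12 fell of 24, and 5 rose and 2 fell of 13 between ZNF557 and ZNF846.

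ZNF480, in the cluster between ZNF175 and ZNF331, had 6.85, 7.81 and 7.57 CPM in Cinnamomi Cortex libraries at 500 µg/mL, against 18.2, 19 and 20 CPM in vehicle libraries. Its log2 fold change was -1.36 (SE 0.1, adjusted p 1.62e-16). ZNF540 lay near the level minimum, with 0.264, 0.367 and 0.191 CPM in treated libraries, against 0.727, 0.728 and 0.652 CPM in vehicle libraries (-1.34, adjusted p 0.000422). Both genes were picked among members whose treated and vehicle libraries did not overlap.

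ZNF709 was listed at 0 in all 3 Cinnamomi Cortex libraries at 500 µg/mL, against 2.63, 2.34 and 2.72 CPM in vehicle libraries. Set against a floor of 3 counts per library, between 0.132 and 0.143 CPM, the level assigned to it was at least 17.9-fold lower. The read-through gene AC008758.1 shares 91.9% of the windows of ZNF709 and went the other way, with 1.76, 1.56 and 1.86 CPM in treated libraries, against 0 in the 3 vehicle libraries. The sums of both were 1.76, 1.56 and 1.86 CPM in treated libraries, against 2.63, 2.34 and 2.72 CPM in vehicle libraries, so how reads were divided between them is uncertain. Single libraries of other groups showed the same switch: ZNF709 had 0 and AC008758.1 2.16 CPM in Rehmanniae Radix Preparata replicate 1 at 100 µg/mL, and 0.0357 and 2.75 CPM in its replicate 3 at 500 µg/mL. The bound therefore describes the counts assigned to ZNF709, not the RNA of the locus. The median over members was -0.3 also with ZNF709 at its bound.

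ZNF460 had the largest rise. Its levels were 4.8, 4.67 and 4.96 CPM in Cinnamomi Cortex libraries at 500 µg/mL, against 2.36, 2.49 and 2.13 CPM in vehicle libraries, a log2 fold change of 1.04 (SE 0.15, adjusted p 8.46e-08). Both of the neighbouring members ZNF264 and ZNF805 rose too: ZNF264 had 16.5, 16.8 and 17 CPM, against 10, 10.4 and 12.1 CPM in vehicle libraries (0.63, adjusted p 2.82e-10). ZNF805 changed by 0.57 (adjusted p 0.00449), a call that was lost with library totals alone (0.29).

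ZNF792 had 6.02, 6.38 and 6.38 CPM in Cinnamomi Cortex libraries at 500 µg/mL, against 3.22, 3.08 and 3.62 CPM in vehicle libraries (log2 fold change 0.92, adjusted p 1.87e-08). ZNF562 had 36.4, 37.8 and 37.1 CPM, against 24.6, 25.9 and 25.7 CPM in vehicle libraries (0.54, adjusted p 3.4e-12). Both carry a KRAB A box. ZNF653 (0.93), ZNF524 (0.7), ZNF358 (0.67), ZNF628 (0.65) and ZNF579 (0.47), which lack a detected box, complete the 10 largest rises among members whose treated and vehicle libraries did not overlap. ZNF653 and ZNF358 each share 17.4% of their windows with an overlapping transcript.

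Members whose roles are well studied went both ways. ZNF473, a partner of the U7 particle in 3' end processing of replication-dependent histone messages, had 8.65, 8.41 and 8.19 CPM in Cinnamomi Cortex libraries at 500 µg/mL, against 17, 15.7 and 17.2 CPM in vehicle libraries (log2 fold change -0.98, SE 0.079, adjusted p 2.8e-15). ZNF224, a repressor first studied at the aldolase A promoter, had 5.49, 5.93 and 6.33 CPM, against 11.4, 10.1 and 11.6 CPM in vehicle libraries (-0.9, adjusted p 1.35e-11). ZNF331, an imprinted gene rearranged in thyroid adenomas, had 18.3, 16.4 and 18.8 CPM, against 27.3, 25.9 and 29.9 CPM in vehicle libraries (-0.63, adjusted p 1.53e-10). All 3 stood clear of their vehicle values.

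ZNF146, a protein made almost entirely of fingers, had 45.8, 46 and 42 CPM in Cinnamomi Cortex libraries at 500 µg/mL, against 61.1, 61.4 and 60.7 CPM in vehicle libraries (log2 fold change -0.45, adjusted p 6.31e-07). ZNF260, its relative in the same cluster, fell by 0.95 on the log2 scale (adjusted p 2.01e-11), and ZNF175, known as a suppressor of HIV-1 transcription, by 0.73 (adjusted p 9.64e-05). ZNF417 and ZNF587, near copies that repress HERVK elements, fell by 0.6 and 0.28; their summed level was 27.9, 25.7 and 28.2 CPM in treated libraries, against 34.8, 33.7 and 35.8 CPM in vehicle libraries. ZNF787, the member with the highest level per kilobase, had 67.1, 71.2 and 68 CPM in treated libraries, against 50, 58.6 and 53.1 CPM in vehicle libraries (0.35, adjusted p 0.000108), a call lost with library totals alone (0.07). Of the other members with the highest levels per kilobase, ZNF581 changed by 0.39 and ZNF580 by 0.35, and ZNF428 did not pass (0.17, adjusted p 0.205). The call of ZNF580 was lost without Cinnamomi Cortex replicate 2 (0.28).

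ZNF274, which binds the 3' ends of zinc finger genes and brings SETDB1 to them, had 19.9, 20.2 and 20.5 CPM in Cinnamomi Cortex libraries at 500 µg/mL, against 16.6, 16.5 and 19 CPM in vehicle libraries. Its log2 fold change of 0.22 (adjusted p 0.00617) turned to -0.06 with library totals alone. ZNF350, a BRCA1 partner that represses GADD45A, had a log2 fold change of -0.23 (adjusted p 0.125) and ZNF382 one of 0.11 (adjusted p 0.512). ZNF154 (-0.31, adjusted p 0.338) and ZNF671 (-0.46, adjusted p 0.279), whose promoters are often methylated in tumours, did not pass either, at mean levels of 1.04 and 0.695 CPM.

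Genes of a list of silencing machinery, which holds KRAB partners and DNA methylation genes, were lower in the same libraries. Of its 23 genes tested, none rose and 22 fell with Cinnamomi Cortex at 500 µg/mL. Among all genes 31.1% rose and 31.6% fell. The median log2 fold change was -0.46 on the list and -0.02 over all genes. The list was drawn up with results of these libraries known, so its direction is not independent evidence. TRIM28 had 233, 240 and 223 CPM in treated libraries, against 291, 300 and 289 CPM in vehicle libraries (-0.34, adjusted p 1.86e-06). SETDB1 had 28.9, 25.8 and 26.3 CPM, against 31.2, 30.5 and 30.3 CPM in vehicle libraries (-0.18, adjusted p 0.0116). UHRF1 and DNMT1, which maintain DNA methylation, fell by 1.52 and 1.07, DNMT3A by 0.83, the SETDB1 partner ATF7IP by 1.3, the HP1 protein CBX1 by 0.62 and the remodeller CHD4 by 0.45. MORC2, the 1 that did not pass, was at 0.11.

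Along the Cinnamomi Cortex doses the largest drop in the summed level lay between 100 and 500 µg/mL. Summed over members, vehicle libraries held 1771 ± 28.71 CPM, and the groups at 20, 100 and 500 µg/mL held 1775 ± 25.98, 1682 ± 38.55 and 1487 ± 9.539 CPM (SD, n = 3 each). The sum over the 24 members of the ZNF101 to ZNF254 cluster was 187.7 ± 11.15 CPM in vehicle and 191 ± 6.245, 179.7 ± 9.074 and 112.3 ± 2.517 CPM at the 3 doses. The sum over members without a detected KRAB A box was 464 ± 10.15 CPM in vehicle and 477.3 ± 8.083, 460.7 ± 10.5 and 453.3 ± 15.01 CPM at the 3 doses. With the other 6 extracts the group means of the cluster sum lay between 171 and 202.3 CPM.

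**Figure D3:**
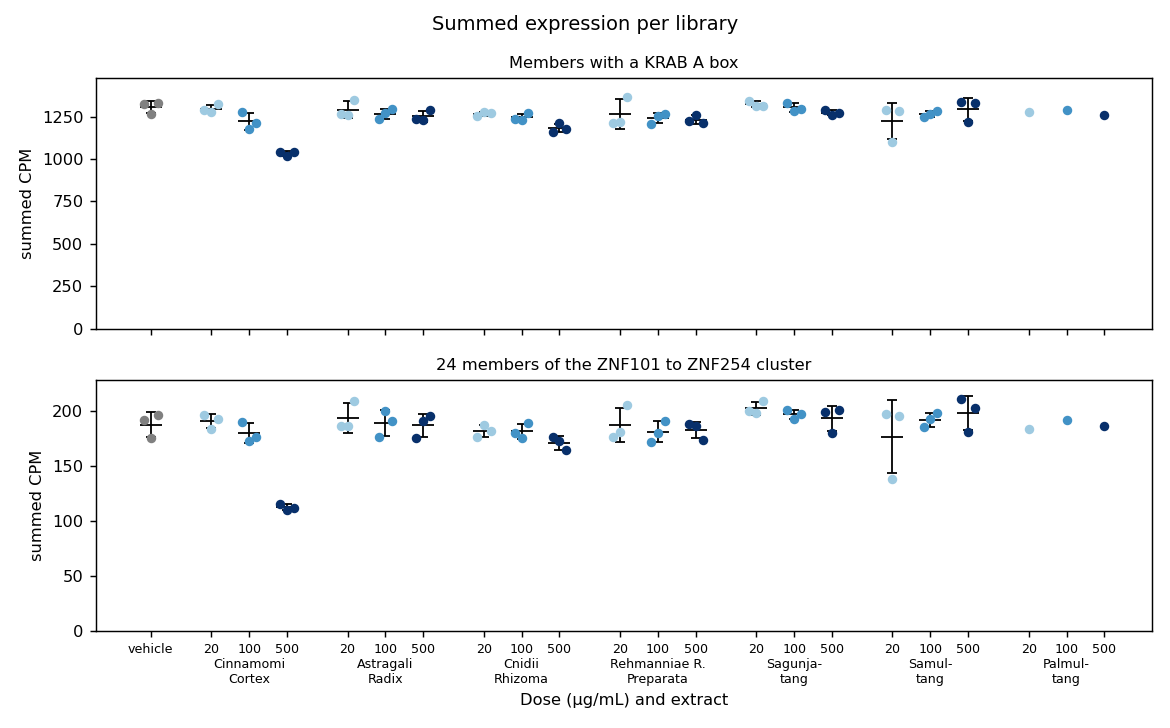
Summed CPM per library over the 178 members with a KRAB A box (top) and over the 24 members of the ZNF101 to ZNF254 cluster (bottom), against extract and dose in µg/mL, with vehicle at the left. Points are libraries, and bars show the mean ± SD of groups of 3. The 3 Cinnamomi Cortex libraries at 500 µg/mL lie below all others, and 1 Samul-tang library at 20 µg/mL lies below its group.

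The trend over dose is given as the log2 change per 5-fold dose step between 20 and 500 µg/mL. For every extract it compares the means at 500 and 20 µg/mL, and the mean at 100 µg/mL does not enter it. With Cinnamomi Cortex the trend rose in 16 members and fell in 104, against 30.5% and 31.4% of all genes. Between 100 and 20 µg/mL no member rose and 7 fell, against 3.96% and 3.48% of all genes: ZNF493 (-0.55), ZNF606 (-0.38), ZNF234 (-0.37), ZNF473 (-0.27), ZNF83, ZNF600 and ZNF317. At an unadjusted p under 0.05, 3 were higher and 32 lower, together 16.8% of members against 19% of all genes, and DESeq2 called 7. Without replicate 2 or replicate 3 at 100 µg/mL the count was 3 each, and without replicate 3 at 20 µg/mL it was 2. Calls over all genes were then 489, 418 and 438 higher and 417, 379 and 385 lower. ZNF473 had 17, 15.7 and 17.2 CPM in vehicle libraries, 15.7, 15.7 and 16.5 CPM at 20 µg/mL, 14, 12.9 and 12.7 CPM at 100 µg/mL and 8.65, 8.41 and 8.19 CPM at 500 µg/mL. Levels at 100 µg/mL thus lay below all at 20 µg/mL and above all at 500 µg/mL.

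**Figure D4:**
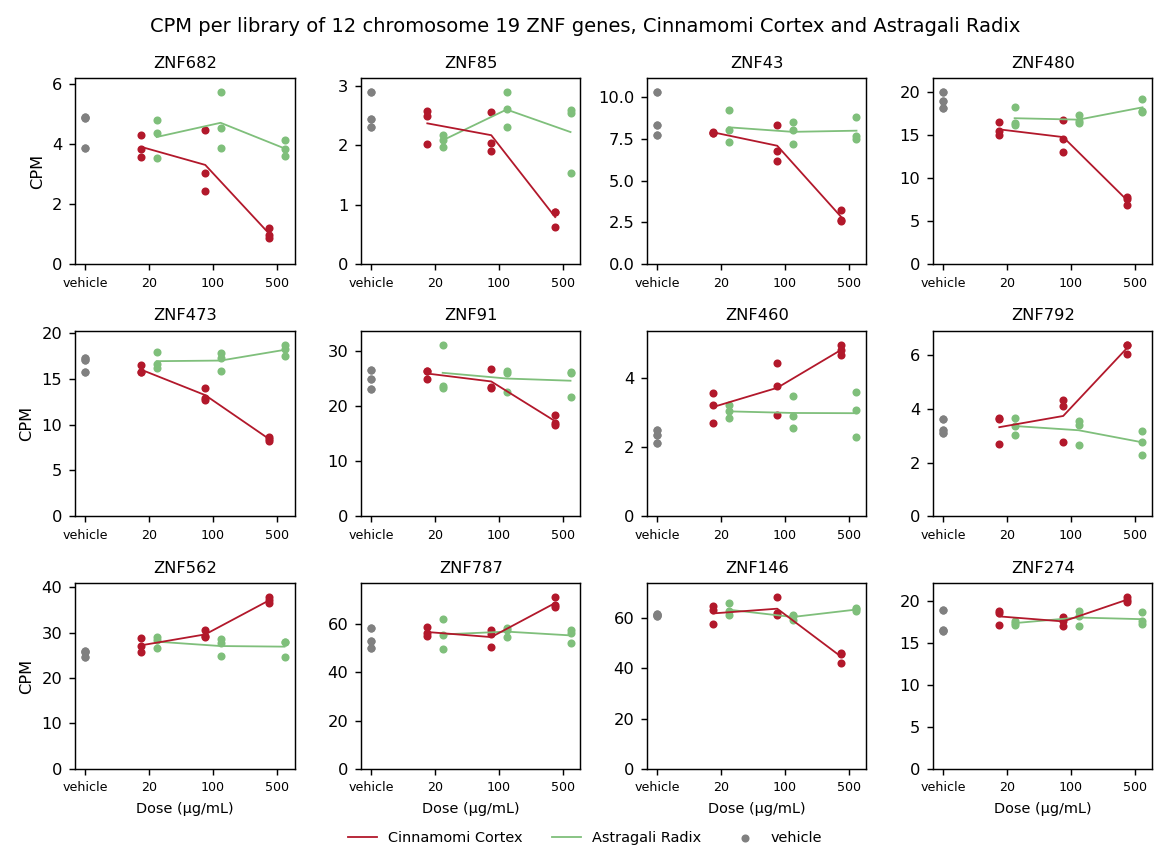
CPM per library of 12 members with Cinnamomi Cortex (red) and Astragali Radix (green) at 20, 100 and 500 µg/mL, with vehicle in grey at the left. Lines join group means of 3 libraries. ZNF682 with Cinnamomi Cortex at 500 µg/mL lies between 0.857 and 1.19 CPM, while with Astragali Radix it lies between 3.6 and 4.12 CPM at that dose.

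Astragali Radix, which shares its set with Cinnamomi Cortex, changed few members. Its dose trend was called in none, against 0.322% of all genes upward and 0.835% downward (edgeR's quasi-likelihood test); at an unadjusted p under 0.05 it was 12, or 5.77% of members against 11.1% of all genes, and DESeq2 also called 0. Tested directly, the trend with Cinnamomi Cortex differed from that with Astragali Radix in 88 members, higher in 10 and lower in 78, against 25% and 25.9% of all genes. Without replicate 3 of Astragali Radix at 20 µg/mL the higher count was 16. The 4 with the lowest adjusted p among the lower ones were ZNF473 (difference -0.51, adjusted p 2.51e-11), ZNF480 (-0.59), ZNF431 (-0.57) and ZNF266 (-0.49), and among the higher ones ZNF562 (0.25), ZNF792 (0.59), ZNF264 (0.2) and ZNF653 (0.49). ZNF431 had 8.01, 7.51 and 6.82 CPM with Cinnamomi Cortex at 500 µg/mL, against 17.1, 17.5 and 17 CPM with Astragali Radix at that dose. Relative to vehicle, 1 member rose and 3 fell with Astragali Radix at 500 µg/mL, against 1.56% and 1.48% of all genes. They were ZNF587 (0.19), ZNF17 (-0.47), ZNF329 (-0.32) and ZNF134 (-0.28). That count of 4 was 2 without vehicle replicate 1 and 1 without Astragali Radix replicate 2 or replicate 3, all lower. Without vehicle replicate 3 it was 2 higher and 1 lower, and with the averaged groups at 20 µg/mL as the comparator 3 higher and 1 lower. Calls over all genes were then 176 higher and 138 lower, and 623 higher and 667 lower.

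With Cnidii Rhizoma at 500 µg/mL 4 members rose and 27 fell relative to vehicle, against 6.11% and 5.67% of all genes, with a median of -0.14. Without vehicle replicate 1 none rose and 14 fell, and without vehicle replicate 3 it was 2 and 12. Calls over all genes were then 460 higher and 477 lower, and 682 higher and 622 lower. Leaving out Cnidii Rhizoma replicate 1 or 3 gave 15 and 19 calls. Replicate 1 had a mitochondrial share of 22.6% and a median log2 ratio over members of -0.19, where replicates 2 and 3 had 16% and 17.2% and medians of -0.08 and -0.16; the part of that share was not tested. ZNF569 had 4.17, 3.55 and 3.4 CPM in Cnidii Rhizoma libraries at 500 µg/mL, against 6.93, 5.73 and 5.65 CPM in vehicle libraries (log2 fold change -0.72, adjusted p 0.000351), and ZNF134 had 16.7, 17.2 and 15.7 CPM, against 21.3, 21.4 and 23.4 CPM in vehicle libraries (-0.41, adjusted p 5.71e-06). Neither gene overlapped between the groups. The members called higher were ZNF444 (0.33), ZNF865 (0.39), ZNF580 (0.42) and ZNF506 (0.7), and all 4 lost the call without vehicle replicate 1. Along the dose no member rose and 4 fell, against 1.35% and 1.86% of all genes: ZNF266 (-0.17), ZNF224 (-0.16), ZNF329 (-0.16) and ZNF791 (-0.13). Each of the 4 lost its call when at least 1 library was left out: 2 were called without Cnidii Rhizoma replicate 2 at 500 µg/mL, 1 without replicate 3 at 500 µg/mL or without replicate 1 or 2 at 20 µg/mL, and none without replicate 1 at 500 µg/mL or replicate 3 at 20 µg/mL. At an unadjusted p under 0.05 the trend was higher in 1 and lower in 31, together 15.4% of members against 15.5% of all genes.

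With Rehmanniae Radix Preparata at 500 µg/mL 4 members rose and 10 fell relative to vehicle, against 3.87% and 3.58% of all genes. Those called higher were ZNF444 (0.37), ZNF580 (0.44), ZNF865 (0.39) and ZNF628 (0.41), and among those that fell were ZNF649 (-0.48), ZNF417 (-0.46), ZNF563 (-0.45) and ZNF607 (-0.42). The 14 calls became 6 without vehicle replicate 1, all of them lower, so that the 4 higher ones were lost, 9 without Rehmanniae Radix Preparata replicate 1 and 7 without its replicate 3. With the averaged groups at 20 µg/mL as the comparator, 250 of 16167 genes rose and 287 fell with Rehmanniae Radix Preparata. Among members none rose and 3 fell with this extract. Its dose trend was called in no member, against 0.359% and 0.315% of all genes, by edgeR's quasi-likelihood test and by DESeq2, with 13 at an unadjusted p under 0.05, or 6.25% of members against 10.5% of all genes.

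With Sagunja-tang at 500 µg/mL 6 members rose and 11 fell relative to vehicle, against 6.76% and 5.52% of all genes. With Samul-tang 5 rose and 10 fell, against 7.44% and 6.24%. With the averaged groups at 20 µg/mL as the comparator, 6 rose and 5 fell with Sagunja-tang, and 1 rose and 1 fell with Samul-tang. Of all 16167 genes 1489 rose and 1166 fell with Sagunja-tang there, and 595 rose and 510 fell with Samul-tang. The 17 calls with Sagunja-tang became 7, 9 and 10 without vehicle replicate 1, 2 and 3, and 10 without Sagunja-tang replicate 1 or 2. By direction they were 1 higher and 8 lower without vehicle replicate 2, and 5 higher and 5 lower without Sagunja-tang replicate 1. The 15 calls with Samul-tang became 7 without vehicle replicate 1 or 2, 8 without Samul-tang replicate 1 and 4 without its replicate 3. Without Samul-tang replicate 2 the balance turned, with 10 higher and 2 lower. With Sagunja-tang the lowest adjusted p-values were those of ZNF587 (0.19), ZNF460 (0.54), ZNF749 (0.28) and ZNF841 (0.25) among rises and of ZNF563 (-0.47), ZNF329 (-0.36), ZNF600 (-0.34) and ZNF420 (-0.61) among falls. Along the dose of Sagunja-tang 1 member rose and 1 fell, against 2.7% and 2.29% of all genes. They were ZNF473, at 16.2, 14.4 and 15.4 CPM with 20 µg/mL, 17.2, 18 and 16.9 CPM with 100 µg/mL and 19.7, 17.6 and 19.1 CPM with 500 µg/mL (trend 0.15, adjusted p 0.00836), and ZNF846 (-0.43). Without Sagunja-tang replicate 2 at 20 µg/mL 1 of the 2 calls was left, and ZNF473 lost its call there (0.13) and without replicate 1 at 500 µg/mL (0.13). ZNF846 lost its call without replicate 1 at 20 µg/mL (-0.33) or replicate 2 at 500 µg/mL (-0.38).

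The comparisons of the 6 extracts share the 3 vehicle libraries, so members that recur among them are given side by side only. ZNF563 had 5.05, 5.51 and 5.38 CPM with Cinnamomi Cortex at 500 µg/mL, 7.95, 10.2 and 8.75 CPM with Cnidii Rhizoma and 12, 13.6 and 12.2 CPM in vehicle libraries. Its log2 fold change at 500 µg/mL was -1.25 with Cinnamomi Cortex, -0.49 with Cnidii Rhizoma, -0.47 with Sagunja-tang, -0.45 with Rehmanniae Radix Preparata, -0.33 with Samul-tang and -0.29 with Astragali Radix, the last not passing (adjusted p 0.102). With the 6 groups at 20 µg/mL, averaged, in place of vehicle, it was -0.93 with Cinnamomi Cortex and between -0.17 and 0.03 with the other 5, none of which passed. The log2 fold changes of ZNF444 against vehicle of 0.33 with Cnidii Rhizoma and 0.37 with Rehmanniae Radix Preparata became 0.01 and 0.04 against the groups at 20 µg/mL, and those of ZNF580 and ZNF865, between 0.39 and 0.44 with these extracts, became 0.07 to 0.12, none called. ZNF329 with Cnidii Rhizoma and Sagunja-tang stayed called against the groups at 20 µg/mL (-0.23 and -0.24), as did ZNF134 and ZNF569 with Cnidii Rhizoma (-0.19 and -0.37).

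**Figure D5:**
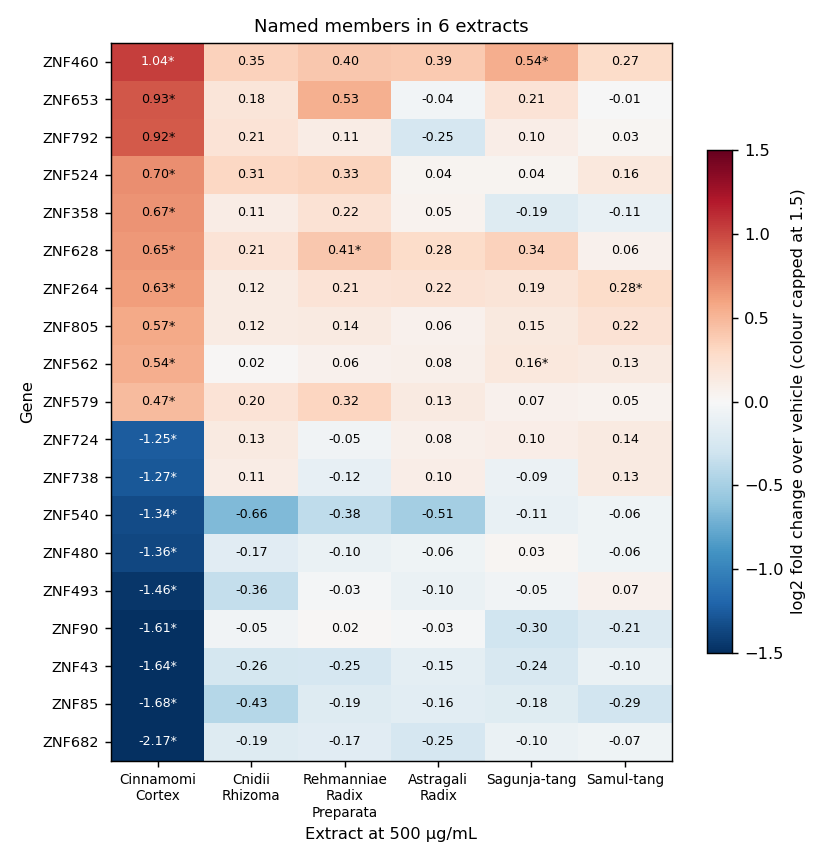
Log2 fold change at 500 µg/mL over vehicle of 19 members, the 10 largest rises and 9 of the 10 largest falls with Cinnamomi Cortex (rows), for 6 extracts (columns). Colour runs between -1.5 and 1.5, and an asterisk marks an adjusted p under 0.05. Rows were chosen on the Cinnamomi Cortex column, where every cell is called, and in the other 5 columns asterisks are few.

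With Samul-tang a dose trend was called in 11 members, of which 5 rose and 6 fell, against 4.48% and 5.4% of all genes. Those that rose include ZNF682 (0.26), ZNF230 (0.23), ZNF486 (0.21) and ZNF614 (0.09). A KRAB A box is in 4 of these 5, as in 178 of all 208 members. The 6 that fell lack one and include ZNF628 (-0.23), ZNF580 (-0.21), ZNF358 (-0.18) and ZNF865 (-0.18). Over 16056 genes this trend had a Spearman's rho of -0.54 with transcript GC content. Its median was 0.07 in members and in all genes at 35 to 40% GC, and -0.14 and -0.08 at 60 to 65%. The part of GC content was not tested. Samul-tang replicate 2 at 20 µg/mL stood apart, with a sum over members of 1597 CPM, where replicates 1 and 3 had 1769 and 1765 CPM. ZNF682 had 3.35, 2.6 and 3.18 CPM at 20 µg/mL, 3.45, 4.3 and 3.29 CPM at 100 µg/mL and 4.3, 4.41 and 4.33 CPM at 500 µg/mL. ZNF358 had 25, 33.3 and 27.6 CPM at 20 µg/mL, 22.6, 25.7 and 23.5 CPM at 100 µg/mL and 22.3, 24.7 and 20 CPM at 500 µg/mL. In replicate 2 the log2 ratio of genes to vehicle had a Pearson's r of 0.5 with transcript GC content across genes. Without replicate 2 at 20 µg/mL 56 of 16399 genes rose and 97 fell, and no member was called. Without Samul-tang replicate 1 or 3 at 500 µg/mL the count was 1 and 0, and it was 22, 27 and 19 without replicate 1 at 20, replicate 3 at 20 and replicate 2 at 500 µg/mL.

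Palmul-tang had 1 library per dose, so its values have no replicate check. The median log2 ratio of members to the vehicle mean was -0.02 at 20, -0.04 at 100 and -0.06 at 500 µg/mL, and that of all genes -0.01, -0.02 and -0.01. At the 3 doses 56, 56 and 45 members lay above all vehicle libraries and 69, 68 and 86 below all. Of all genes, 30.6%, 30.9% and 30.8% lay above and 32.4%, 34.4% and 31.8% below. ZNF155 was lowest, with log2 ratios of -0.8, -0.92 and -0.9 in order of dose, and ZNF671 reached 0.83 at 100 and 0.92 at 500 µg/mL.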

How the data were processed

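Libraries of HepG2 RNA were made with a directional kit and read as 100 bp paired ends, per the labels' protocols. Reads were handled with RSEM 1.3.3, STAR 2.7.3a, Trim Galore 0.6.5 and FastQC 0.11.9 on GRCh38, per the submitters' processing notes; the annotation release is not given in the sources used here, nor whether counting used strand. The authors deposited expected counts per gene, of which 8.58% were not whole, and these were rounded. Of 270 columns of the table, 60 belong to the labelled samples and 210 were not used. Gene types and places came from GENCODE release 29.

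The 3 libraries of each of 19 groups were fitted together with edgeR 4.0.16 (R 4.3.3) by the quasi-likelihood test, with TMM factors between 0.833 and 1.05 and edgeR's filter on low counts, which left 16167 genes. P-values were adjusted over them by Benjamini-Hochberg, with a threshold of 0.05. The script was tested on simulated data. Fold changes are log2, CPM values use TMM-scaled totals, and log2 ratios of single libraries use an offset of 0.1 CPM. Fingers and the KRAB A box (a pyhmmer 0.12.3 profile of 223 proteins, E value of 1e-05, window of 42 residues) were read from translated GENCODE 29 coding sequences in place of the RefSeq proteins first planned. Promoters are from RefSeq (GRCh38.p14).

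Members, gene lists and tests were chosen with earlier results of these data known. Named members are the 10 largest rises and falls with Cinnamomi Cortex at 500 µg/mL among called members with non-overlapping libraries, up to 4 called members per direction in other comparisons by adjusted p, the 6 with the highest CPM per kilobase, the members nearest the level minimum and members of known role. ZNF563, listed side by side over extracts, is among the second kind. Alternatives were RLE factors, library totals, no filter, DESeq2 1.42.0, a block for the replicate number, fits restricted to the groups of a comparison, the averaged 20 µg/mL groups in place of vehicle, other member rules and leaving out each library. Palmul-tang, with 1 library a dose, entered no test.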

Additional observations from a re-analysis of the deposited data

Results flagged for a closer look

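The dose trend of 78 members was lower with Cinnamomi Cortex than with Astragali Radix and that of 10 members was higher. This was a direct test of the difference between the 2 trends (edgeR's quasi-likelihood test, adjusted p under 0.05). Over all genes 25.9% were lower and 25% higher. Values are differences in log2 change per 5-fold dose step, Cinnamomi Cortex minus Astragali Radix, over 6 libraries per trend. Named here are members picked above for their rise or fall with Cinnamomi Cortex at 500 µg/mL that were also called in this difference. The picking used libraries that enter the difference too, so its direction for them is not independent. Of the picked rises, ZNF524, ZNF628, ZNF805 and ZNF579 were not called in it. Among members that rose with Cinnamomi Cortex at 500 µg/mL the difference was 0.59 for ZNF792, 0.49 for ZNF653, 0.29 for ZNF460, 0.25 for ZNF358, 0.25 for ZNF562 and 0.2 for ZNF264, the last at 0.07 and no longer called with library totals alone. Among members that fell it was -0.9 for ZNF682, -0.85 for ZNF85, -0.8 for ZNF90, -0.72 for ZNF43, -0.72 for ZNF493, -0.7 for ZNF724, -0.69 for ZNF738, -0.59 for ZNF480 and -0.58 for ZNF540. ZNF709 had a fitted difference of -4.37, which depends on the prior count because its libraries at 500 µg/mL were listed at 0, and is no bound.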

How the results depend on the processing

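Of 101 named results, 39 kept their call and direction in every alternative run and 62 changed call or direction in at least 1; causes were not tested. With library totals alone 8 members rose with Cinnamomi Cortex at 500 µg/mL, 5 along its trend and 3 in the difference of trends. Of all 16167 genes 2598, 2422 and 2079 rose there. The same scaling called 56 members with Cnidii Rhizoma at 500 µg/mL and 15 between Cinnamomi Cortex 100 and 20 µg/mL. Of all genes 507 rose and 1993 fell in the first, and 314 rose and 1110 fell in the second. ZNF274 and ZNF444 turned to -0.06 each with library totals. With the averaged 20 µg/mL groups in place of vehicle, 3 members were called with Rehmanniae Radix Preparata, 11 with Sagunja-tang and 2 with Samul-tang. Of all 16167 genes 250 rose and 287 fell, 1489 rose and 1166 fell, and 595 rose and 510 fell, in that order. Against these groups ZNF587 turned to -0.01 with Astragali Radix and to -0.02 with Sagunja-tang and with Samul-tang. ZNF841 turned to -0.05 with Sagunja-tang, ZNF134 to 0.03 with Samul-tang and ZNF444 to -0.1 with Cinnamomi Cortex. Fits restricted to the groups of a comparison leave fewer libraries to estimate the spread. In them 13 members were called with Cnidii Rhizoma, 0 with Astragali Radix, 4 with Sagunja-tang and 6 with Samul-tang at 500 µg/mL. Along the Cnidii Rhizoma trend it was 1 and along that of Samul-tang 0. Calls over all genes, higher and lower in the same order, were 437 and 315, 183 and 95, 571 and 443, and 899 and 580. For the 2 trends they were 133 and 187, and 25 and 47. With no filter on low counts 2 members were called with Astragali Radix, 8 with Sagunja-tang and 8 with Samul-tang at 500 µg/mL, and 1 along the Cnidii Rhizoma trend. Calls over 34074 genes, higher and lower in that order, were 333 and 287, 905 and 851, 962 and 1003, and 374 and 307. DESeq2 called 1 member along the Sagunja-tang trend, where 517 of all genes rose and 406 fell. Kept to the 134 members with no same-strand exon overlap, which are fewer genes, Cinnamomi Cortex at 500 µg/mL called 83 (66 lower) and its trend 79 (68 lower). The difference of trends called 6 higher, and Rehmanniae Radix Preparata 9, Astragali Radix 2 and Samul-tang 9 at 500 µg/mL. The fit is unchanged there, so the shares over all genes are those given above. Leaving out 1 library at a time gave 118 to 132 members with Cinnamomi Cortex, 14 to 27 with Cnidii Rhizoma, 6 to 15 with Rehmanniae Radix Preparata, 1 to 4 with Astragali Radix, 7 to 12 with Sagunja-tang and 4 to 14 with Samul-tang at 500 µg/mL. For trends it gave 111 to 116 with Cinnamomi Cortex, 0 to 2 with Cnidii Rhizoma, 1 to 3 with Sagunja-tang and 0 to 27 with Samul-tang. It gave 2 to 8 between 100 and 20 µg/mL and 9 to 16 higher in the difference of trends. Calls over all genes moved too. For the Samul-tang trend they were 56 higher and 97 lower without replicate 2 at 20 µg/mL, and 1374 and 1438 without replicate 3 there. Deviations of same-numbered libraries of a set from their group means had a median r between 0.00715 and 0.0336. For libraries of other numbers in a set it was between -0.017 and 0.0051. These values do not settle whether the numbers pair libraries. With the replicate block 131 members were called with Cinnamomi Cortex at 500 µg/mL, 122 along its trend and 88 in the difference of trends. Calls over all 16167 genes, higher and lower, were 5064 and 5136, 4986 and 5084, and 4071 and 4226. Members under 2 CPM are the least precise, and 7 of 29 fell with Cinnamomi Cortex there.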
